A study of Mus musculus with 18 samples.

Results

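Tgfbi and 7 genes of the transforming growth factor beta (TGF-beta) pathway were read in the postnatal brain of mice with Brca1 conditionally deleted through nestin Cre: the ligands Tgfb1, Tgfb2 and Tgfb3, the receptors Tgfbr1, Tgfbr2 and Tgfbr3, and the latency protein gene Ltbp1. Every probe set (a group of short probes read together as 1 signal) annotated to exactly 1 of these 8 genes was taken. This gave 44 of the 90174 probe set entries in the 3 tables, 17 of 22626 on the cortex A chip, 5 of 22511 on the cortex B chip and 22 of 45037 in the rest table. Tgfbi was chosen by its rise from wild-type to knockout signal in the rest table described below, the largest there, so its values in that table are given as a description and carry no test. The 7 others were included as genes of the pathway, with earlier results of these data known. The arrays listed too few signals to test every probe set: 22 of the 44 could be tested, 6 of 17 on the cortex A chip, 1 of 5 on the cortex B chip and 15 of 22 in the rest table.

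TGF-beta ligands are secreted in a latent form, held in the extracellular matrix by latent TGF-beta binding proteins such as Ltbp1 and released by integrins and proteases. Free ligand binds the type II receptor Tgfbr2, which recruits and activates the type I receptor Tgfbr1, and the signal passes through Smad transcription factors. Tgfbi is named for its induction by TGF-beta and encodes a secreted fasciclin-domain protein that binds collagens and integrins. In brain the pathway is known for its part in vessel development and in the maturation of microglia.

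Both groups were taken at postnatal day 7. In the conditional knockout, 1 Brca1 allele had exons 5 to 13 floxed and the other was null through a neo cassette inverted at exon 11. Cre came from a nestin transgene, whose promoter is active in neural progenitors; for the wild-type animals the labels give no further genotype. Cortex RNA was read on paired A and B chips, and samples titled rest, whose source is P7 brain and whose parts of the brain are not named, to an array holding the probe sets of both. Each of the 6 groups had 3 arrays, 18 in all, and each table was read by itself.

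Signals are given after scaling, in arbitrary units, and a log2 change is knockout minus wild type of log2(signal + 16). A signal was listed for 54% to 58% of probe sets per A chip, 33.6% to 42.6% per B chip and 49.2% to 51.6% per rest array. The other cells are blank for reasons the labels do not state, so a blank is treated as no value, not as a low one. The Brca1 probe set listed on every array read 38, 36.9 and 48.9 in wild-type and 51.4, 44 and 61.4 in knockout cortex (log2 change 0.25, SE 0.159, limma adjusted p = 0.496), and 102, 112 and 114 against 118, 86 and 135 in the rest table (0.03, SE 0.17, limma adjusted p = 0.978). The exon it reads is not given, so it does not check the deletion. A signal for Eif2s3y, on the Y chromosome, appeared on knockout replicates 1 and 2 of each table and on no other array, so sex is partly joined with genotype and knockout replicate 3 alone shares the marker pattern of the wild-type arrays. Excitatory cortical neuron markers were listed in the cortex, where the hindbrain genes Hoxa2, Hoxb2 and Hoxb3 were blank on all arrays of the A chip. Pcp4, Calb1, Cbln1 and Zic1, other markers of cerebellum and hindbrain, were listed on every array of that chip. Hoxb2 was blank on all rest arrays too, so these blanks do not check the dissection. The labels do not say whether cortex and rest samples came from the same animals. With 3 arrays a group, precision is limited by their number.

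The promoters of Tgfbi and Tgfbr2 are shown because these are the member genes whose probe sets were called higher in the knockout. Each line holds the 250 bases before the annotated start, 5′ to 3′ on the strand of the gene, from RefSeq on build GRCm38.p6, and capitals mark the Smad motif CAGAC on either strand (GTCTG on the opposite one) and the GC box GGGCGG on either strand. Tgfbi lies on chromosome 13 at 56609586 to 56639359, with its window at chr13:56609336-56609585 on the plus strand, and Tgfbr2 on chromosome 9 at 116087695 to 116175363, with its window at chr9:116175364-116175613 on the minus strand.
Tgfbi: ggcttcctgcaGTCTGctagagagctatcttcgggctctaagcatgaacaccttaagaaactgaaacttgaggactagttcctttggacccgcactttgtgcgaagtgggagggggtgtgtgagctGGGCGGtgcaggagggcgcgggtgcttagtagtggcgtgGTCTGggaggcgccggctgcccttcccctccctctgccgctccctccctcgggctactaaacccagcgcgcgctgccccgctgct
Tgfbr2: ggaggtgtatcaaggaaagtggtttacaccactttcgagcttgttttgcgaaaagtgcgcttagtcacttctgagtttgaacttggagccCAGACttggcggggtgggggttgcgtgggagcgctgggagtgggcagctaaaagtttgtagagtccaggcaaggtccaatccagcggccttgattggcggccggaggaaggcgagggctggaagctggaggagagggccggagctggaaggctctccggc
The Tgfbi window held the Smad motif at 239 and 85 bases before the start and the GC box at 124, and the Tgfbr2 window held it at 160. Of 32851 promoter windows of the same length, 42.2% held CAGAC and 32.7% held GGGCGG on either strand, so these letters are common, and a match is a description of the sequence and not a binding site. RefSeq windows were matched for 6 of the 8 member genes. Those of Tgfb2 and of Ltbp1 (both windows) also held CAGAC, as did 1 of the 2 windows of Tgfbr1, and that of Tgfb1 did not.

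Tgfbi was higher in the knockout in every probe set that had values in both genotypes. In the cortex, 3 of its 4 probe sets were listed on all knockout arrays and on at most 1 wild-type array, and only 1437463_x_at had a value on all 6 arrays. That probe set read 37.5, 45 and 51.6 in the wild-type cortices and 128, 126 and 208 in the knockout cortices. The groups did not overlap, and knockout replicate 3 was the highest array. The mean rose 3.44-fold, from 44.7 ± 7.07 to 154 ± 46.6 (SD, n = 3 each), or 1.46 on the log2 scale (SE 0.189, 95% interval 1.04 to 1.88, limma adjusted p = 0.00184).

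With each array left out in turn the log2 change stayed between 1.24 and 1.57 with an adjusted p of at most 0.00953 (limma). With a sex-marker term, which sets knockout replicate 3 against the wild type, the change was 1.89 (SE 0.203, limma adjusted p = 0.00376). The fold depends on the number added before the log, since the wild-type signal is dim: the log2 change was 0.98 with 64 added and 1.73 with 1 added.

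The 3 other cortical Tgfbi probe sets could not be tested, and no fold is given against a blank. The 1448123_s_at probe set read 51.3 in wild-type replicate 1, was blank in the other wild-type cortices, and read 339, 346 and 411 in the knockout. The 1415871_at probe set was blank in all wild-type cortices and read 139, 117 and 160.2 in the knockout. The 1456250_x_at probe set was also blank in all wild-type cortices and read 152, 136 and 171 in the knockout. All 4 probe sets were thus listed on every knockout cortex array, and in the 4 of them together the wild-type arrays gave 4 values, 51.6 or below in each case.

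In the rest table all 4 Tgfbi probe sets were listed on all 6 arrays, and in each the knockout arrays lay above the wild-type arrays. The 1448123_s_at probe set read 111, 71.9 and 86.1 in wild type and 602, 388 and 452 in the knockout, a 5.37-fold higher mean (89.6 ± 19.6 against 481 ± 110, SD, n = 3 each; log2 change 2.23, SE 0.186). This is the value that chose the gene. The next largest rise with 1 gene was that of Tbx18, a T-box transcription factor gene, with a log2 change of 2.09.

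The other Tgfbi probe sets of the rest table moved by different amounts. The 1456250_x_at probe set read 45.7, 25.9 and 51.9 in wild type and 200.3, 134 and 181 in the knockout (4.17-fold, log2 change 1.73, SE 0.217). The 1415871_at probe set read 45, 58.9 and 51 in wild type and 224, 151 and 194 in the knockout (3.67-fold, log2 change 1.59, SE 0.172). The 1437463_x_at probe set, the one tested in the cortex, read 94.8, 67.2 and 49.5 in wild type and 192, 175 and 173 in the knockout (2.56-fold, log2 change 1.21, SE 0.192). Knockout replicate 1 was the highest array in all 4 probe sets of the rest table, and among the wild-type arrays the order differed between probe sets. The fit in limma called all 4 higher (0 with the sex-marker term, 2 without a variance trend), beside 0.145% of the 21407 probe sets tested; as this contrast chose the gene, nothing is read from these counts. On 1437463_x_at the rise was smaller in the rest table than in the cortex by 0.24 on the log2 scale (SE 0.286), a difference within its error.

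**Figure D1:**
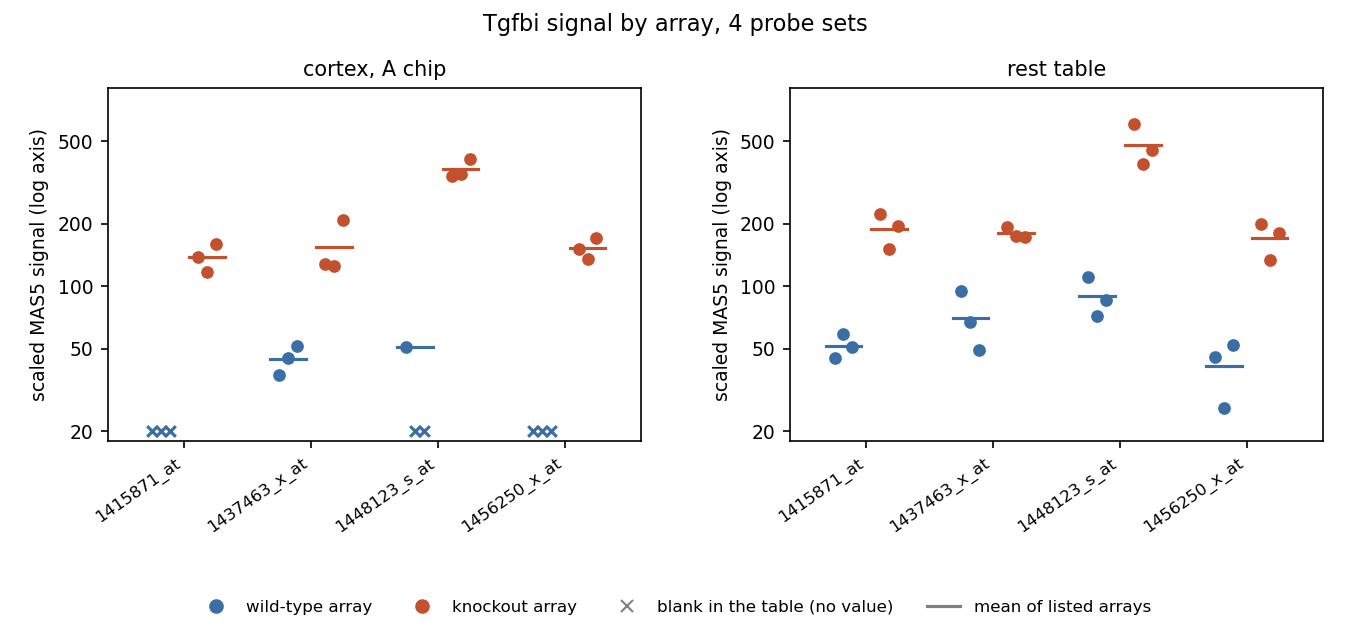
Scaled MAS5 signal of the 4 Tgfbi probe sets on a log axis, by array, for the cortex A chip (left) and the rest table (right); dots are arrays, short lines are means of listed arrays and crosses are blanks drawn at the foot of the axis, where they have no value. Each knockout array lies above each listed wild-type array in both panels, and the cortex panel has 8 wild-type blanks.

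Among the receptors, the type II receptor Tgfbr2 rose in the cortex. Its probe set 1426397_at read 161, 171 and 200.3 in the wild-type and 383, 379.5 and 342 in the knockout cortices. The groups did not overlap and the knockout arrays lay close together. The mean rose 2.07-fold, from 178 ± 20.2 to 368 ± 22.5 (SD, n = 3 each), or 0.99 on the log2 scale (SE 0.11, 95% interval 0.75 to 1.24, limma adjusted p = 0.000778). With the sex-marker term the log2 change was 0.89 (SE 0.156, limma adjusted p = 0.0425). Tgfbr2 and Tgfbi were the 2 members called on the A chip, of 6 member probe sets tested, where 2.30% of all 12065 probe sets tested were called higher.

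Tgfbr2 did not pass in the rest table. Its values there were 356, 247 and 299.6 in wild type and 456, 373 and 464 in the knockout, so the lowest knockout array stood just above the highest wild-type array. The means were 301 ± 54.7 and 431 ± 50.5 (SD, n = 3 each), or 0.50 on the log2 scale (SE 0.143, 95% interval 0.18 to 0.82, limma adjusted p = 0.241). Groups without overlap in this direction were common there, at 8.42% of the probe sets tested. The knockout change was 0.49 lower on the log2 scale in the rest table than in the cortex (SE 0.186), which did not pass in the joint limma fit of both tables (adjusted p = 0.37). The further Tgfbr2 probe sets gave little: 1425444_a_at was listed on 1 wild-type and 1 knockout array of the rest table, at 72.9 and 72.5, and 1422019_at was blank throughout.

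The type I receptor Tgfbr1 showed no difference that passed. Its probe set 1420895_at read 263, 223 and 225 in wild-type and 256, 269.6 and 249 in knockout cortex (log2 change 0.12, SE 0.105, 95% interval -0.11 to 0.35, limma adjusted p = 0.653). On the rest arrays the values were 321, 326 and 328 against 395, 295 and 369.9 (0.11, SE 0.119, 95% interval -0.16 to 0.37, limma adjusted p = 0.821). The groups overlapped in both tables, and among rest arrays the knockouts spread far more than the wild types. Its probe sets 1420893_a_at and 1420894_at, tested in the rest table, had log2 changes of 0.20 and 0.24 (limma adjusted p = 0.755 and 0.766). On the A chip 1420893_a_at read 48.8 on wild-type replicate 2 and 34.1 and 39.4 on knockout replicates 1 and 2. These were too few to test, and 1420894_at was blank there.

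The co-receptor Tgfbr3 (betaglycan), which presents ligand to the type II receptor, was read in the cortex by 1433795_at of the B chip. That probe set was listed at 418 on wild-type replicate 1 and blank on the other wild-type arrays, and read 824, 938 and 697 in the knockout. It could not be tested, since 1 wild-type array gave a value. On the rest arrays it read 246 and 282 in wild type, with replicate 2 blank, and 228, 321 and 388 in the knockout; the groups overlapped (log2 change 0.20, SE 0.202, 95% interval -0.26 to 0.66, limma adjusted p = 0.796). A second probe set, 1425620_at, was listed on knockout replicates 2 and 3 of the rest table, at 120.1 and 139, and nowhere else.

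No ligand probe set passed limma's threshold in any table; at an unadjusted p under 0.05 stood 2, both of Tgfb2 on the A chip, where 15.7% of all probe sets tested did so. Tgfb2, the ligand with most probe sets, had positive log2 changes in the cortex. Its probe set 1450923_at read 106, 88.7 and 96.4 in wild type and 126, 142 and 106 in the knockout (log2 change 0.31, SE 0.139, 95% interval 0.00 to 0.61, limma adjusted p = 0.315), with knockout replicate 3 level with wild-type replicate 1 at the edge of the groups. The 1450922_a_at probe set read 55.6, 48.1 and 56.6 in wild type and 66, 69 and 73 in the knockout (0.30, SE 0.135, limma adjusted p = 0.316), without overlap, as 11.6% of the probe sets tested on that chip had it in this direction. The third probe set, 1423250_a_at, overlapped (0.19, SE 0.189, limma adjusted p = 0.694), as did 1438303_at of the B chip, listed on 2 arrays of each genotype (0.16, SE 0.293, limma adjusted p = 0.973). That is the only member tested on the B chip; 0.281% of the 7838 probe sets tested there were called.

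The Tgfb2 probe sets pointed both ways in the rest table. Their log2 changes were -0.24 for 1450923_at (251, 291 and 208 in wild type against 198, 219 and 205 in the knockout), -0.17 for 1438303_at, -0.11 for 1423250_a_at and 0.11 for 1450922_a_at, with limma adjusted p between 0.594 and 0.894. For 1450923_at the knockout change was 0.55 lower on the log2 scale in the rest table than in the cortex (SE 0.191), which did not pass in the joint limma fit (adjusted p = 0.311). None of the 5 member probe sets in that fit besides Tgfbi passed it, and of 11959 probe sets compared 0.0502% did.

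Tgfb1 encodes the ligand on which microglia are known to depend. In the cortex it was listed at 84.8 on 1 wild-type array and at 80.4 and 80.8 on 2 knockout arrays, too few to test. Rest arrays read 130.5, 82.7 and 102 in wild type and 138, 118 and 109.7 in the knockout, overlapping (log2 change 0.20, SE 0.175, 95% interval -0.19 to 0.59, limma adjusted p = 0.753). Its second probe set, 1445360_at, was blank on all arrays that hold it.

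Tgfb3 was listed in the cortex only on knockout replicates 1 and 2, at 82.7 and 84.2. Those are also the arrays with the Y-linked marker, and the part of sex in that pattern was not tested. Rest arrays read 122, 81.3 and 79 in wild type and 78.2, 91.2 and 86.4 in the knockout (log2 change -0.10, SE 0.178, 95% interval -0.50 to 0.30, limma adjusted p = 0.894). The spread among wild-type arrays, set by replicate 1, was larger than the difference. Ltbp1 had 3 probe sets and each was blank on every array that holds it, so its level was not measured.

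**Figure D2:**
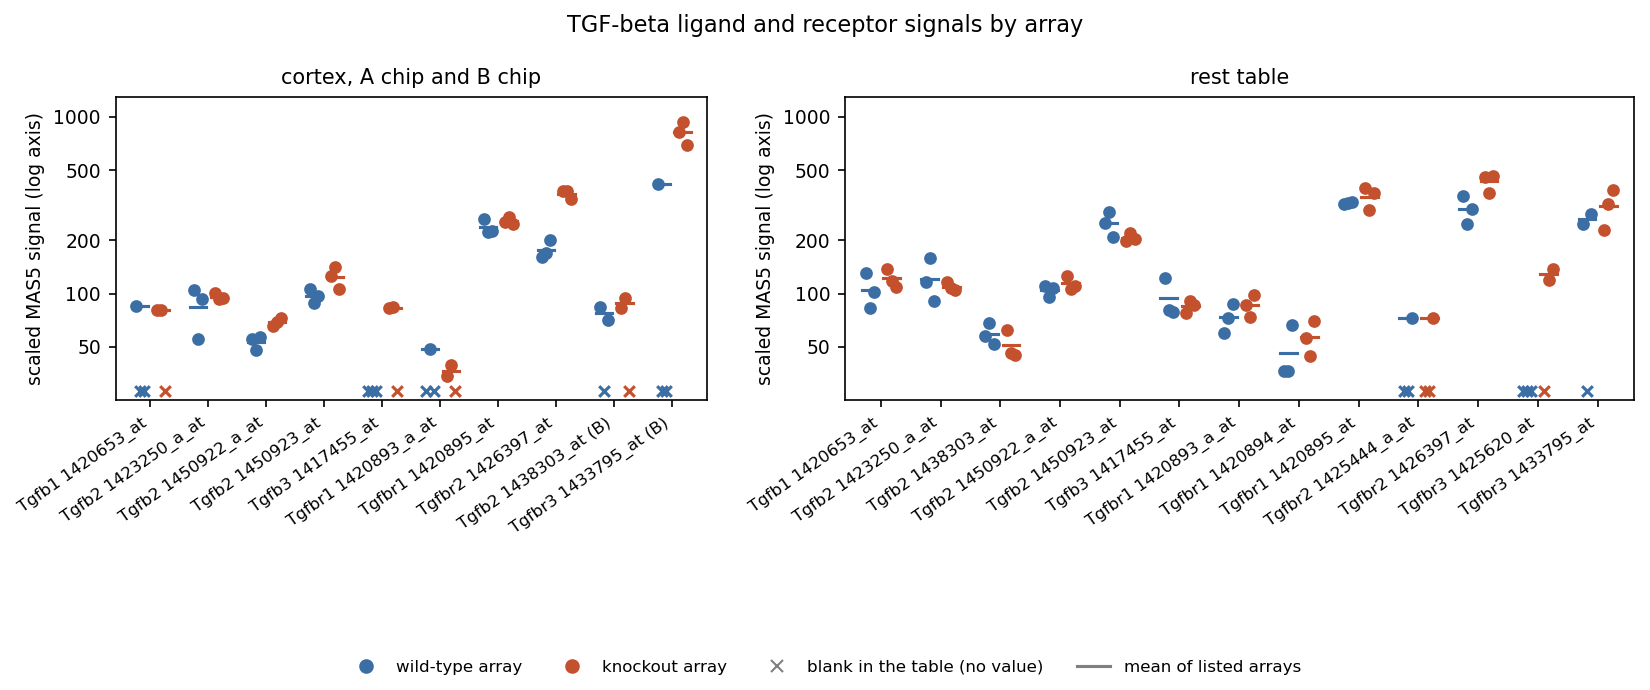
Scaled MAS5 signal of the ligand and receptor probe sets listed on at least 1 array, on a log axis, for cortex (left; B marks the B chip) and the rest table (right); dots are arrays, short lines means of listed arrays and crosses blanks, which have no value. Tgfbr2 1426397_at separates the genotypes widely in the cortex (161 to 200.3 against 342 to 383), and most other probe sets overlap.

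The wider pathway was read by lists, each gene by its brightest tested probe set. These lists were drawn up with earlier results of these data known and share genes with each other, so counts describe and do not test them. Over all genes, 2.72% of 7275 were called higher and 0.660% lower on the A chip, with a median log2 change of -0.01, and among rest arrays 0.180% of 11101 were called higher and 0.180% lower, with a median of 0.01. On the B chip 0.363% of 4411 genes were called higher and 0.0907% lower.

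Of genes for holding and releasing latent ligand, 3 of 11 tested on the A chip rose, 0 fell and 8 did not pass, with a median log2 change of 0.55. The 3 belong to release, and the binding protein genes Ltbp3 (0.61, limma adjusted p = 0.13) and Ltbp4 (-0.06, limma adjusted p = 0.862) did not pass. The integrin subunit gene Itgb5 rose from 290.5 ± 31.9 to 472 ± 17.3 (SD, n = 3 each), or 0.68 on the log2 scale (SE 0.101, limma adjusted p = 0.00403). Plat, which encodes tissue plasminogen activator, rose by 0.61 (limma adjusted p = 0.00875) and the membrane protease gene Mmp14 also by 0.61 (limma adjusted p = 0.0154). Counting those 3, 8 of the 11 had an unadjusted limma p under 0.05, where the share over all genes was 16.6%. With the sex-marker term, applied to the lists after the data were seen, 0 of the 11 were called. Among rest arrays 0 of 13 were called by limma and the median was 0.04. Of the 13, 2 had an unadjusted limma p under 0.05, where the share over all genes was 10.2%. The fibrillin gene Fbn2 had the lowest p, with a log2 change of 0.82 (limma adjusted p = 0.144). On the B chip Fbn2 had a change of 0.95 (limma adjusted p = 0.0833), with 0 of 2 tested called (the other, the integrin gene Itgb8, had -0.11), and Ltbp3 had -0.37 in the rest table (limma adjusted p = 0.457).

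The list of extracellular antagonists holds genes of ligand-binding proteins, and 3 of its 8 genes could be tested in each table, all of small leucine-rich proteoglycans. On the A chip these 3 rose: Dcn (decorin) from 343 ± 40.3 to 836 ± 59.7 (SD, n = 3 each), or 1.25 on the log2 scale (SE 0.1, limma adjusted p = 7.81e-05), Bgn (biglycan) by 0.98 and Fmod (fibromodulin) by 0.93. Of the 3 tested in the rest table, 2 rose: Dcn from 468 ± 106 to 913 ± 100.3 (log2 change 0.96, limma adjusted p = 0.0327) and Bgn by 0.75 (limma adjusted p = 0.0267), while Fmod read 193 ± 63.8 and 238 ± 113 (limma adjusted p = 0.893). With the sex-marker term 2 of 3 were called in the cortex and 0 of 3 in the rest table.

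The Smads and their regulators, which carry the signal inside the cell, gave 0 limma calls of 10 genes on the A chip, 0 of 11 on the B chip and 0 of 18 in the rest table, with 0, 0 and 3 at an unadjusted p under 0.05, where the shares over all genes were 16.6%, 8.71% and 10.2%. The median log2 changes were -0.10, -0.11 and -0.07. Smad7 is the inhibitory Smad that the pathway itself induces. In the rest table Smad7 read 187 ± 15.5 in wild type and 132 ± 7.3 in the knockout (SD, n = 3 each). The log2 change was -0.46 (SE 0.126, limma adjusted p = 0.231). On the A chip it read 103 ± 14.9 and 93.3 ± 17.4 (-0.13, limma adjusted p = 0.761). Its B chip probe set, listed on 3 wild-type and 2 knockout arrays, changed by 0.30 (limma adjusted p = 0.924). The corepressor gene Ski had the lowest p of the list on the A chip (-0.21, limma adjusted p = 0.36), followed by the Smad phosphatase gene Ppm1a (-0.14, limma adjusted p = 0.47). On the B chip the 2 lowest were Ppm1a (0.27) and Smad3 (0.20), neither passing, and in the rest table Stub1, a ubiquitin ligase gene, followed Smad7 (0.18, limma adjusted p = 0.355). Among receptors and co-receptors Tgfbr2 alone was called, which made 1 of 8 genes in the cortex and 0 of 9 in the rest table, with medians of 0.03 and 0.10; Eng (endoglin), a co-receptor of endothelial cells, had a log2 change of 0.29 in the rest table (limma adjusted p = 0.487). On the B chip 0 of 2 were called, Acvrl1 (0.39) and Nrp1 (-0.11). The A chip probe set of Nrp1 changed by 0.34 (limma adjusted p = 0.236). Of the activin-branch ligands 0 of 3 were called by limma on the A chip and 0 of 4 in the rest table, with 0 and 2 at an unadjusted p under 0.05, and medians of -0.11 and -0.40. Nodal had a log2 change of -0.48 there (limma adjusted p = 0.414) and Inha, the inhibin alpha gene, one of -0.22, while Gdf10 and Inha had -0.19 and -0.11 in the cortex.

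Genes often used as TGF-beta targets rose in part. In the cortex 9 of 25 tested rose and 0 fell, with a median log2 change of 0.41. The fibrillar collagen genes led: Col3a1 (2.01), Col1a1 (1.82), Col1a2 (1.53) and Col5a2 (1.26), then Lox (1.14), a collagen cross-linking enzyme, with limma adjusted p between 2.78e-06 and 0.00529. The matricellular gene Ccn2 (connective tissue growth factor) rose by 1.10 and the transglutaminase gene Tgm2 by 0.82. The other called genes were Timp3 (0.53, limma adjusted p = 0.0309), a protease inhibitor gene, and Tgfb1i1 (0.41, limma adjusted p = 0.0477). The remaining genes did not pass. Counting the called genes too, 15 of the 25 had an unadjusted limma p under 0.05, where the share over all genes was 16.6%. Of the genes that did not pass, Eln had the lowest p (log2 change 0.68, limma adjusted p = 0.0576). The immediate target Klf10 read 107 ± 11.1 and 119 ± 13 (log2 change 0.13, limma adjusted p = 0.707), and Tsc22d1 read 2863 ± 89.3 and 2869 ± 144 (0.00, limma adjusted p = 0.992). Eln, Klf10 and Tsc22d1 were named after their values were seen. Among rest arrays Col3a1 alone was called, 1 of 28 (log2 change 1.40, limma adjusted p = 0.0222), and the median was 0.18. There 7 of the 28 had an unadjusted limma p under 0.05, where the share over all genes was 10.2%. On the B chip 0 of 2 were called, Zeb2 (-0.47) and Tsc22d1 (0.02). With the sex-marker term the counts were 4 of 25 and 0 of 28.

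The proteins that Tgfbi is known to bind, with its relatives of the fasciclin family, gave 8 calls of 12 genes in the cortex, all higher, with a median log2 change of 0.92. Col6a3, a type VI collagen chain, rose from 92.4 ± 6.35 to 315 ± 10.2 (SD, n = 3 each), or 1.61 on the log2 scale (SE 0.109, limma adjusted p = 2.5e-05), and Col4a1, a basement membrane collagen, by 1.21 (limma adjusted p = 2.29e-05). Col6a1 rose by 1.13 (limma adjusted p = 0.00125), and Col1a1, Dcn, Bgn and Itgb5, given above, are on this list too. Of 14 tested in the rest table, 4 rose: Col4a1 (0.97), Col6a3 (0.97), Dcn and Bgn, and the median was 0.64. Periostin (Postn), the closest relative of Tgfbi, read 173 ± 0.411 in 2 wild-type arrays and 274 ± 25.7 in 3 knockout arrays of the rest table (log2 change 0.62, limma adjusted p = 0.14). The integrin subunit genes Itgav and Itgb1 changed by 0.01 and 0.04 there. In the cortex they changed by 0.29 and 0.43 (limma adjusted p = 0.186 and 0.0961), neither passing. With the sex-marker term 5 of 12 and 0 of 14 were called.

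**Figure D3:**
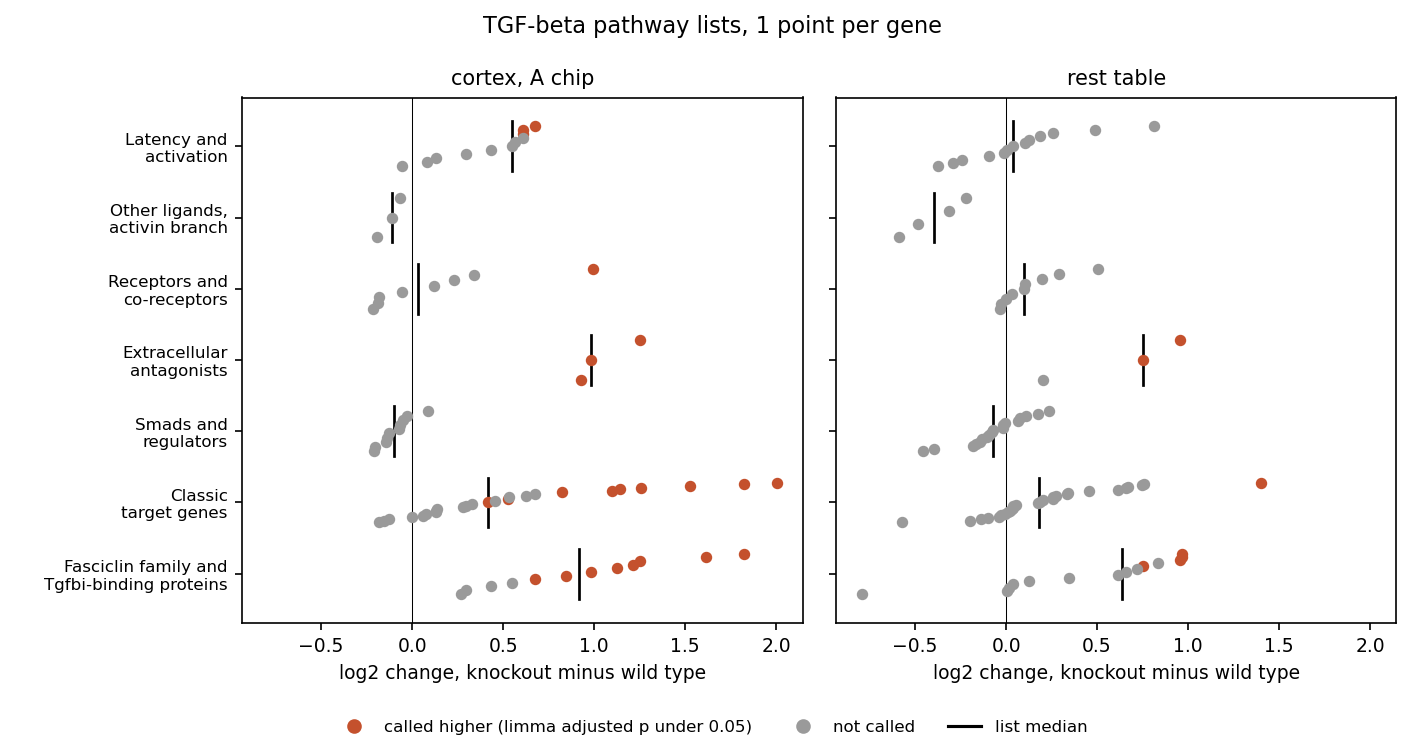
Log2 change, knockout minus wild type, of each tested gene (1 point per gene, brightest probe set) in 7 lists of the pathway, for the cortex A chip (left) and the rest table (right); red points were called higher by limma, grey points were not called, and black bars are list medians. No gene was called lower; in the cortex the Smad list has a median of -0.10 and the list of Tgfbi-binding proteins 0.92.

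Several markers of cells that could carry these transcripts were higher on the same arrays. Over all genes tested on the A chip, 2.72% were called higher and 0.660% lower. Of single probe sets tested, 11.6% had all knockout arrays above all wild-type arrays, and no such share was computed for sums. Of meningeal fibroblast markers 8 of 9 tested were called higher in the cortex, and their summed A chip signal was 5940.3 to 6482 in wild-type and 11038 to 13425 in knockout arrays, with Slc22a6, Foxd1 and Crabp2 listed in the knockout only. Of border macrophage markers 2 of 4 were called higher, with sums of 241 to 325 and 527 to 597. Mrc1 (log2 change 1.20) and Pf4 (0.74) rose, and F13a1 (0.17) and Lyve1 (-0.25) did not pass. Cd163, Clec4n and Ms4a7 were blank on all A chip arrays. Of microglial markers 4 of 7 were called higher (C1qa, C1qb, C1qc and Csf1r), with sums of 1989.8 to 2227 and 3134 to 3567. P2ry12 (log2 change -0.002), Tmem119 (0.41) and Cx3cr1 (0.50) did not pass. Trem2 and Sall1 were blank on all A chip arrays. On the B chip Sall1 read 166 ± 36.4 in wild type and 192 ± 17.9 in the knockout (SD, n = 3 each; limma adjusted p = 0.92). Of mural markers 2 of 7 were called higher (1861 to 1961 and 2725 to 2912; Acta2, Myh11, Kcnj8, Anpep and Tagln blank on that chip), and of endothelial markers 3 of 9 (1636 to 1917 and 2309 to 2495; Slco1a4 and Pecam1 blank on that chip). Sums of astrocyte markers (4628 to 5348 and 5908 to 7342, 2 of 8 called higher), blood monocyte markers (645 to 761 and 1030.2 to 1300.2, 1 of 2) and choroid plexus markers (2017 to 5127 and 5182 to 5746, 0 of 2) were also higher without overlap. The A chip choroid plexus sum is Ttr alone. The monocyte sum holds 2 genes: Vim rose from 618 ± 44.5 to 1060 ± 94.6, and Lyz2 overlapped (67.7 ± 27.6 and 101 ± 42.8, limma adjusted p = 0.514). Ccr2, S100a4 and Plac8 were blank on the A chip. On the B chip, where 0.363% of all genes were called higher, 1 of 3 choroid plexus markers was. That was Kcnj13 (log2 change 1.25, limma adjusted p = 0.0414), and Ttr (1.33) and Clic6 (1.05) did not pass there. B chip sums of Kcnj13 and Ttr were 3996 to 13840 in wild type and 17957 to 26443 in the knockout. A chip sums of oligodendrocyte markers (3495 to 4321 and 1609 to 2096, 2 of 5 called lower) and inhibitory neuron markers (1091 to 1363 and 674 to 886, 3 of 5) were lower without overlap. On the A chip the higher sums thus moved with Tgfbi, Tgfbr2 and the matrix genes. The oligodendrocyte and inhibitory neuron sums moved the other way. The meningeal fibroblast sum holds Col1a1, Col1a2, Col3a1 and Dcn, which are among those matrix genes, so it is not separate from them. The part of these cell types in those results was not tested. In bulk tissue, more cells of a type and more RNA per cell cannot be told apart.

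Over all genes tested in the rest table, 0.180% were called higher and 0.180% lower. Several of these marker sums overlapped between the genotypes there. For meningeal fibroblasts they were 8244 to 13499.6 in wild type and 12946 to 16007 in the knockout (4 of 11 markers called higher), for border macrophages 442 to 605 and 548 to 659 (0 of 5 called), for mural cells 3147 to 3913 and 3663 to 4249 (0 of 7 called) and for endothelial cells 3072 to 3868 and 3519 to 3828 (0 of 10 called). Microglial sums did not overlap, at 2999 to 3495 and 3696 to 4408, with 0 of 7 markers called. Oligodendrocyte marker sums did not overlap either, at 15748 to 17196 in wild type and 3959 to 10929.9 in the knockout (2 of 6 called lower, median log2 change -1.37). Choroid plexus sums were 6733 to 8004 and 2232 to 9584 (0 of 7 called) and astrocyte sums 14133 to 15513 and 12454 to 15024 (0 of 8 called), both overlapping. The part of these cell types in the Tgfbi values was not tested.

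Finally, the genes whose signals ran most like that of Tgfbi were read off the rest table, by Pearson's r of log2 signal with 1448123_s_at over its 6 arrays among 17199 probe sets with 1 gene and a value on each array. The 8 nearest genes were Lama1 (r = 0.999), Tbx18 (0.998), Tial1 (0.998), C1qc (0.997), Scarb1 (0.995), Lgals1 (0.994), Plxnc1 (0.993) and Id3 (0.993). The other Tgfbi probe sets had r of 0.982, 0.969 and 0.956, below all 8. The 6 points share 2 genotypes and 1 set of arrays, and 298 of the probe sets compared, those of Tgfbi included, had r above 0.9; r carries no test here.

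The 8 genes differed widely in the size of the change. In the rest table limma did not call Tial1, C1qc, Scarb1, Plxnc1 or Id3. Tbx18 changed by 2.09 in the rest table. On the cortex B chip it rose from 172 ± 20.7 to 862 ± 52 (SD, n = 3 each), or 2.23 on the log2 scale (SE 0.162, limma adjusted p = 1.1e-05). Lama1, which encodes a laminin chain of basement membranes, read 84.2, 62.1 and 75.9 in wild type and 286, 210.1 and 243 in the knockout of the rest table (log2 change 1.54, SE 0.159). Like 2 of the 4 Tgfbi probe sets, its probe set was blank in all wild-type cortices and listed in all knockout cortices, at a mean of 158 ± 13.5 (SD, n = 3). Lgals1, the galectin gene, read 692, 560.2 and 596 against 1149, 949 and 1031 (0.75, SE 0.102), and in the cortex it rose from 259 ± 32 to 746 ± 5.86 (SD, n = 3 each), or 1.48 on the log2 scale (SE 0.0978, limma adjusted p = 2.29e-05). C1qc, a complement gene of microglia, changed by 0.44 in the rest table and rose by 0.62 in the cortex (SE 0.138, limma adjusted p = 0.0363), and Id3 by 0.43 and 0.89 (SE 0.108, limma adjusted p = 0.0011 in the cortex). Scarb1, a lipoprotein receptor gene, changed by 0.24 in the rest table and by -0.12 in the cortex (limma adjusted p = 0.664), and Tial1 and Plxnc1 changed by 0.38 and 0.42 in the rest table and by 0.17 and 0.20 in the cortex, neither passing there (limma adjusted p = 0.907 and 0.56).

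**Figure D4:**
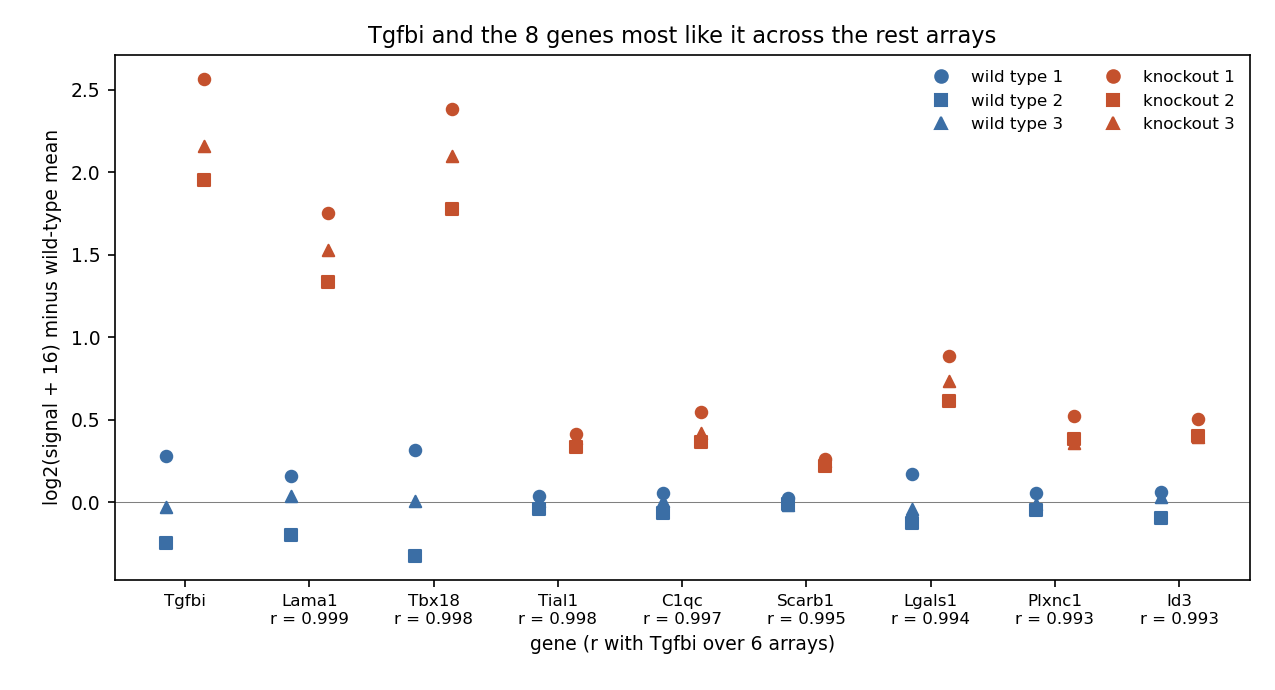
Log2(signal + 16) minus the wild-type mean of the gene, for Tgfbi 1448123_s_at and the 8 genes with the highest Pearson r with it over the 6 arrays of the rest table; blue symbols are wild-type and red symbols knockout arrays, and the symbol's shape is the replicate number. Knockout replicate 1 is the highest knockout array in every gene shown. Knockout replicate 2 is the lowest in Tgfbi, Lama1, Tbx18, Tial1, C1qc, Scarb1 and Lgals1, and knockout replicate 3 in Plxnc1 and Id3. The size of the change runs from 2.23 in Tgfbi to 0.24 in Scarb1.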

How the data were processed

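The deposited values are intensity values: linear probe set signals made with MAS5, per the submitters' processing notes, which give no version; RNA was extracted with TRIZOL, per the labels' protocols. Control probe sets (64 per table) were dropped. Arrays of a table were brought to the same 2% trimmed mean of the probe sets listed on all 6 (factors 0.948 to 1.06). Testing needed a value on 2 or more arrays per genotype. Knockout and wild type were compared on log2(signal + 16) with limma 3.58.1 in R 4.3.3 (lmFit, eBayes with a trend), adjusted by Benjamini and Hochberg over all probe sets tested in the table and called at an adjusted p under 0.05. The fit was tested on simulated data. Rest and cortex A chip effects were compared in a joint limma fit with a mean per group.

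Probe sets were named through the array annotation, updated by gene identifier: 20380, 14661 and 34945 had 1 gene, 691, 245 and 932 had several and 1555, 7605 and 9160 had none on the A chip, B chip and rest array. Members and lists were chosen with earlier results of these data known. Apart from cell type markers and Eif2s3y, the genes named are all members, Brca1, up to 5 called genes per list and table (else the 2 with the lowest p) and the 8 nearest to Tgfbi. Others were named after their values were seen: Ccn2, Tgm2, Postn, Itgav, Itgb1, Klf10, Tsc22d1, Eln, Timp3, Tgfb1i1, Ltbp3, Ltbp4 and Smad7 in the cortex, Nrp1 on the A chip, Sall1 on the B chip and Fmod in the rest table. Replicates are separate arrays; the series text counts 3 animals per genotype for the cortex, and for the rest table nothing says so, where p-values measure only the spread between arrays.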

Additional observations from a re-analysis of the deposited data

How the results depend on the processing

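On the A chip, Tgfbi 1437463_x_at was called under all 19 alternatives that gave it a value (adjusted p 0.00135 to 0.00953) and Tgfbr2 under all 20 (0.000563 to 0.0425); no uncalled member became called under any. Uncalled probe sets that changed sign were Tgfb2 1423250_a_at without wild-type replicate 2 and Tgfb3 without wild-type replicate 1. Over the arrays left out, the log2 change of Tgfb2 1423250_a_at ranged from -0.0401 to 0.345 in the cortex and from -0.277 to 0.0777 in the rest table, and that of Tgfb3 from -0.198 to 0.0726 in the rest table. Of the members, the A chip called 1 with a filter at the 40th percentile of the level, which dropped Tgfbi, and 5 with blanks set to the 5th percentile of an array, which adds the other Tgfbi probe sets; leaving out 1 array called 2 each time. In the rest table, where the contrast chose Tgfbi and its calls support nothing, the member count of 4 was 1 with the level filter, 2 without a variance trend, 0 with the sex-marker term and 2 to 4 with 1 array left out (2 without knockout replicate 1).

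All calls numbered 364 on the A chip, 22 on the B chip and 67 in the rest table. They were 83 and 10 on the A chip and in the rest table with the sex-marker term, and 607, 48 and 161 at an adjusted p under 0.10. Blanks set low gave 14 on the B chip and 105 in the rest table, no trend gave 9 and 11, array weights 66 on the B chip and the level filter 35 in the rest table. With 1 array left out they ranged from 186 to 327, 9 to 25 and 13 to 68; the lowest were without knockout replicate 2 on the A chip and in the rest table. With the replicate number as a block they were 299, 12 and 142. Deviations were correlated between arrays of the 2 genotypes. In the rest table, same-numbered arrays had 0.0227 to 0.251 and differently numbered ones -0.203 to 0.143, so the ranges overlapped. They overlapped for the A chip too (-0.00876 to 0.0189 against -0.0520 to 0.0427). B chip arrays differed: every same-numbered correlation (0.0721 to 0.159) was above every differently numbered one (-0.164 to 1.82e-05). Whether equal numbers mark pairs there is therefore not settled. The main fits took the numbers as unpaired in every table. The joint fit called 6, then 3 with an offset of 64 or no trend, 0 with the sex-marker term and 3 to 28 with 1 array left out.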
